A study of Mus musculus with 9 samples.

Results

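Schwann cells wrap the axons of peripheral nerves, and those that wrap a single large axon build its myelin sheath. The transcription factor SOX10 keeps the Schwann cell lineage and, with EGR2, turns on the genes of the sheath. Compact myelin is held together by proteins such as PMP22 and MBP, MAG stands in the membrane that faces the axon, and periaxin (PRX) forms a scaffold under the outer membrane. In skin, nerve fibres and their Schwann cells run through the dermis and around hair follicles, and several of these genes are also used by other skin cells.

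The 7 genes Sox10, Egr2, Pmp22, Mbp, Mag, Prx and S100b were taken by symbol from a table of 54456 genes. All 7 were found and all 7 had enough counts to be tested, among 26081 tested genes. Polyadenylated RNA came from the skin of mice in a study of immune-mediated alopecia, taken from lesions that the series' design text calls AA-like. One group of 3 libraries was treated with microneedles (MNs) loaded with IL-2, a T cell growth factor, and CCL22, a chemokine for cells with the receptor CCR4. A second group of 3 received empty MNs, and 3 libraries were from lesions left untreated. All groups share the lesion, and neither labels nor design text give strain, sex, age, the way lesions were induced, the dose or the time of sampling. Whether each library is a different animal is not stated either, and the p-values may therefore rest on technical spread alone.

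Total counts ran from 85962714 to 96740589 per library, so even the lowest member, Mag, was read with 41 to 72 counts in each library. Squared differences between libraries, as a median over genes, came to 1.82 to 3.57 times counting noise for 9 pairs within groups and to 8.93 to 19.1 times for 27 pairs across groups. For these pairs the libraries were scaled by total counts alone, so an offset in scaling between groups is part of the values across groups. Mitochondrial transcripts made up 3.83 ± 0.0622% of counts with loaded MNs, 3.37 ± 0.0544% with empty MNs and 4.62 ± 0.0891% in untreated lesions (SD, n = 3 each). In bulk skin, fewer cells of a type and less RNA per cell cannot be told apart. Levels are given in CPM, a gene's counts relative to the total of its library, corrected with TMM factors that align the libraries on the bulk of their genes.

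The members did not move as one set. Mbp and Egr2 were highest with empty MNs, S100b was lowest there and Pmp22 had its highest mean in untreated lesions. Sox10 had its highest mean with loaded MNs, where its libraries overlapped with those of empty MNs. Mag and Prx also had their highest means with empty MNs, but passed in no comparison. The members' changes were small, at most 1.37-fold. Between loaded and empty MNs edgeR called 4 of the 7 members at an adjusted p under 0.05, 1 higher and 3 lower, or 57.1% of them; of all tested genes 41.4% were called, 22.9% higher and 18.5% lower. Against untreated lesions 3 members were called with loaded MNs, 1 higher and 2 lower (42.9%), beside 42.3% of all tested genes, 19.0% higher and 23.3% lower. With empty MNs 4 were called against untreated lesions, 2 higher and 2 lower (57.1%), beside 48.3% of all tested genes, 20.2% higher and 28.1% lower. Each pair of these comparisons shares 1 group. The libraries did not overlap for 4 members between loaded and empty MNs (1 higher, 3 lower), beside 50.8% of all tested genes, 28.1% higher and 22.7% lower. They did not overlap for 4 members between loaded MNs and untreated lesions (2 higher, 2 lower), beside 52.7%, 24.6% higher and 28.1% lower, and for 3 between empty MNs and untreated lesions (2 higher, 1 lower), beside 54.6%, 23.5% higher and 31.1% lower. The members' median log2 fold change was -0.18 for loaded against empty MNs, 0.03 for loaded MNs against untreated lesions and 0.20 for empty MNs against untreated lesions, where the medians of all tested genes were 0.02, -0.01 and -0.02.

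**Figure D1:**
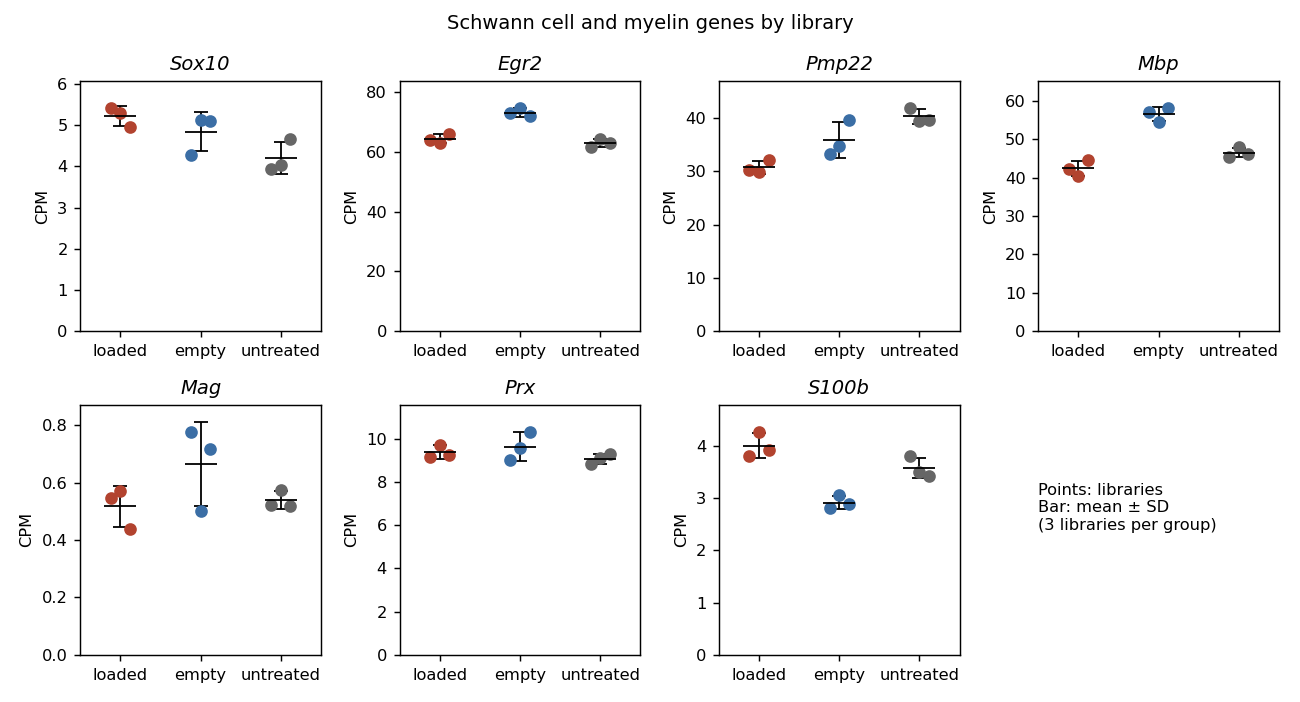
Level of each of the 7 genes in CPM (vertical axis, from 0) in the 3 libraries of each group, with the mean and SD as bars. Mbp with empty MNs (54.5 to 58.2 CPM) and S100b with empty MNs (2.81 to 3.06 CPM) stand apart from both other groups, in opposite directions.

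The promoters of the members were read from RefSeq's GRCm38.p6 set, in windows of 250 bases, for letters that SOX and EGR factors are known to bind. A matched member had 1 to 5 windows, and not all lie before the whole gene. Some are downstream of another window of the same gene, and some hold exon bases (61 in Egr2 window 5, 129 in Pmp22 window 4). ACAANG was searched for SOX and GTGGGCG for EGR, on both strands; the letters differ, and no match of one overlaps a match of the other in the windows shown. Of the 7 members 5 were matched in the set, and 3 of them (Egr2, Mag and S100b) held ACAANG in at least 1 window, beside 39.9% of 27025 genes; 1 (Egr2) held GTGGGCG, beside 7.98%. The members have more windows per gene than most: counted by window, 5 of 14 (35.7%) held ACAANG, beside 36.3% of 32851 windows, and 1 of 14 (7.14%) held GTGGGCG, beside 7.02%. Of the 13 myelin list genes 8 were matched, 3 with ACAANG and 2 with GTGGGCG. Shown are 1 window each of S100b, Egr2 and Mag, the members with ACAANG, and of Gjb1, the myelin list gene with the largest fold change, whose window holds both. Capitals mark the matches, 5′ to 3′ on the gene's strand, at chr10:76253586-76253835 (+) for S100b, chr10:67537316-67537565 (+) for Egr2, chr7:30914923-30915172 (-) for Mag and chrX:101383482-101383731 (+) for Gjb1. These coordinates are of GRCm38.p6, while the counts are of mm39. The Egr2 window is window 2 of 5 and the Gjb1 window is window 4 of 4. Both lie downstream of window 1 of the same gene, at chr10:67535249-67535498 for Egr2 and chrX:101376126-101376375 for Gjb1. Their matches may therefore lie inside the gene. A match is a description of letters, not of a bound site.
S100b: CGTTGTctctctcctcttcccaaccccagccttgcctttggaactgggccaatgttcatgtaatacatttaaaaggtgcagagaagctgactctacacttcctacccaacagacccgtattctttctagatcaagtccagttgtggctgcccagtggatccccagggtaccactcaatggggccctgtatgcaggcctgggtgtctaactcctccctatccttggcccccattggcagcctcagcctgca
Egr2: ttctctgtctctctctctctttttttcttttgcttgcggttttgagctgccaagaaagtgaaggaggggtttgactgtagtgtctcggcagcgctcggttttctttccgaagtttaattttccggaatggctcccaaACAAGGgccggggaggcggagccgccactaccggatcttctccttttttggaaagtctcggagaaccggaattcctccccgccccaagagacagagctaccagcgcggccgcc
Mag: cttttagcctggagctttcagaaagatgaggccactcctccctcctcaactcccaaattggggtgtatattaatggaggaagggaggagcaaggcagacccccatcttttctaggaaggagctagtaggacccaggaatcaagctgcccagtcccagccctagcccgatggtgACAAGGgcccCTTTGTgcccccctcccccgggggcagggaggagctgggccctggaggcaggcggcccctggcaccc
Gjb1: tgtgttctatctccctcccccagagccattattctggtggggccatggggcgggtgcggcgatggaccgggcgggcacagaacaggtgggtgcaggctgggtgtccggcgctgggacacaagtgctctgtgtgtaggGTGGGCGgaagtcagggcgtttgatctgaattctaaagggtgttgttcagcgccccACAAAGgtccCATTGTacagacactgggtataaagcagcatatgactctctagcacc

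Sox10 encodes the neural crest transcription factor that Schwann cells and melanocytes both need. Its gene spans 79039108 to 79049440 on the minus strand of chromosome 15 (mm39, as all gene positions here except those of promoters). It stood at 5.42, 5.30 and 4.95 CPM with loaded MNs, 4.29, 5.14 and 5.10 CPM with empty MNs and 3.93, 4.04 and 4.65 CPM in untreated lesions. Loaded MNs and untreated lesions did not overlap, while empty MNs overlapped with both. Sox10 rose 1.24-fold with loaded MNs against untreated lesions (log2 fold change 0.31, SE 0.086, edgeR adjusted p = 0.00408). Neither neighbouring pair in that order passed: the log2 fold change was 0.11 (95% interval -0.06 to 0.28) for loaded against empty MNs and 0.20 (0.03 to 0.38; adjusted p = 0.0536) for empty MNs against untreated lesions. The second value passed in 9 of 18 alternative analyses, DESeq2 size factors and the DESeq2 Wald test among them (edgeR adjusted p = 0.0203 with those factors). Of 10 melanocyte markers, 4 were higher and 4 lower with loaded MNs than in untreated lesions, all 10 were higher with loaded than with empty MNs, and all 10 were lower with empty MNs than in untreated lesions. Their summed level was 626 to 688 CPM with loaded MNs, 317 to 354 CPM with empty MNs and 605 to 630 CPM in untreated lesions. Dct, Pmel and Tyrp1 led that sum, and no marker was at 0. The part of melanocytes in the Sox10 values was not tested.

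Egr2 encodes the zinc finger factor that drives myelination in Schwann cells; in mouse skin it is also active in hair follicle progenitors. The gene spans 67371305 to 67378018 on the plus strand of chromosome 10. It had 64.0, 63.0 and 66.0 CPM with loaded MNs, 72.8, 74.7 and 71.8 CPM with empty MNs and 61.7, 64.1 and 63.0 CPM in untreated lesions. The empty-MN libraries stood above all 6 others, and loaded MNs overlapped with untreated lesions. Egr2 fell with loaded against empty MNs (log2 fold change -0.18, SE 0.032, edgeR adjusted p = 2.42e-05) and rose with empty MNs against untreated lesions (0.22, SE 0.032, adjusted p = 1.88e-06). For loaded MNs against untreated lesions the log2 fold change was 0.03 (95% interval -0.03 to 0.10), and it passed only with scaling by library size alone (0.16, adjusted p = 0.000145). Per kilobase of gene span Egr2 was the highest of the 7 genes, at 9.58 ± 0.229, 10.9 ± 0.217 and 9.37 ± 0.184 CPM per kb with loaded MNs, with empty MNs and in untreated lesions (SD, n = 3 each). The other 6 had means of 0.0330 (Mag, loaded MNs) to 1.32 CPM per kb (Pmp22, untreated lesions); the span includes introns, so long genes are set low on this scale. All 7 hair follicle markers, mostly genes of differentiated shaft and sheath cells, were higher with loaded MNs than with empty MNs and than in untreated lesions, and all 7 were lower with empty MNs than in untreated lesions, with sums of 15381 to 16399 CPM for loaded MNs, 8642 to 9852 CPM for empty MNs and 13713 to 13901 CPM for untreated lesions, led by Krt71, Krt25 and Krt35. The part of hair follicle cells in the Egr2 values was not tested. Of 9 immediate early genes, a class that tissue handling can induce and to which other Egr genes belong, 3 were higher and 1 lower with loaded than with empty MNs, 7 were higher with empty MNs and all 9 higher with loaded MNs than in untreated lesions. Their summed level, led by Junb, Egr3 and Egr1, was 750 to 758 CPM with loaded MNs, 713 to 746 CPM with empty MNs and 615 to 644 CPM in untreated lesions, and their part in the Egr2 values was not tested.

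Pmp22 encodes a membrane protein of compact peripheral myelin, whose extra copy causes a hereditary neuropathy in humans; fibroblasts and other cells express it too. Its span is on the plus strand of chromosome 11 from 63019808 to 63050373. Its levels were 30.1, 29.9 and 32.2 CPM with loaded MNs, 33.2, 34.7 and 39.6 CPM with empty MNs and 41.9, 39.4 and 39.7 CPM in untreated lesions. The loaded-MN libraries were below all others, and only the highest empty-MN library reached into the range of untreated lesions. Pmp22 fell with loaded MNs against untreated lesions (log2 fold change -0.39, SE 0.053, edgeR adjusted p = 8.03e-06) and against empty MNs (-0.22, SE 0.053, adjusted p = 0.00228). The fall with empty MNs against untreated lesions (-0.17, SE 0.052, adjusted p = 0.0122) was lost with upper-quartile factors (-0.10) and library size alone (-0.06), and without empty-MN library 1 or 2 or untreated library 1 (-0.12, -0.15 and -0.14). Of 8 fibroblast markers 7 were lower with loaded MNs than in untreated lesions, 7 were lower and 1 higher with loaded than with empty MNs, and 6 were lower and 1 higher with empty MNs than in untreated lesions. Their summed level was 1053 to 1083 CPM with loaded MNs, 1358 to 1458 CPM with empty MNs and 1567 to 1618 CPM in untreated lesions. Col3a1, Col1a2 and Dcn, collagen and proteoglycan genes, led the sum. Of 7 macrophage markers, led by Csf1r, C1qa and C1qc, all 7 were lower with loaded MNs than in untreated lesions. With loaded MNs 6 were lower than with empty MNs. With empty MNs 6 were lower than in untreated lesions and 1, Csf1r, was higher (69.7 against 58.4 CPM). The macrophage markers summed to 154 to 168 CPM with loaded MNs, 210 to 215 CPM with empty MNs and 236 to 250 CPM in untreated lesions. No marker of either list was at 0, and the part of these cells in the Pmp22 values was not tested.

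Mbp encodes the cytoplasmic protein that draws the membranes of compact myelin together; the same gene also yields longer transcripts, called golli, in cells outside the nervous system such as lymphocytes. It reaches from 82493271 to 82603762 on the plus strand of chromosome 18, a span of 110492 bases over which all reads were counted, so myelin and golli transcripts were not separated. Rpl21-ps8 on the opposite strand (57 to 127 counts per library) covers 0.437% of it. Mbp had 42.3, 40.4 and 44.5 CPM with loaded MNs, 57.1, 54.5 and 58.2 CPM with empty MNs and 45.4, 47.9 and 46.2 CPM in untreated lesions. The 3 groups did not overlap. Mbp fell with loaded against empty MNs (log2 fold change -0.42, SE 0.038, edgeR adjusted p = 3.22e-10), and rose with empty MNs against untreated lesions (0.28, SE 0.038, adjusted p = 2.89e-07). These 2 calls held in all 18 alternatives, at -0.47 to -0.38 and at 0.26 to 0.39. The small fall with loaded MNs against untreated lesions (-0.13, SE 0.038, adjusted p = 0.00535) was lost with library size alone (-0.00070, adjusted p = 0.99) and without loaded-MN library 2 (-0.10, adjusted p = 0.0673). Of 6 T cell markers, led by Trbc2, Cd3g and Cd247, 4 were lower and 1 higher with loaded than with empty MNs, 4 were lower with empty MNs than in untreated lesions, and all 6 lower with loaded MNs than in untreated lesions. Their summed level was 29.3 to 30.2 CPM with loaded MNs, 33.7 to 36.8 CPM with empty MNs and 43.6 to 45.8 CPM in untreated lesions. Skeletal muscle markers, led by Acta1, Myh1 and Atp2a1, summed to 7666 to 8163 CPM with loaded MNs, 10481 to 12292 CPM with empty MNs and 8375 to 8663 CPM in untreated lesions, with 7 of 8 lower with loaded than with empty MNs and 7 of 8 higher with empty MNs than in untreated lesions. The part of either cell type in the Mbp values was not tested.

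**Figure D2:**
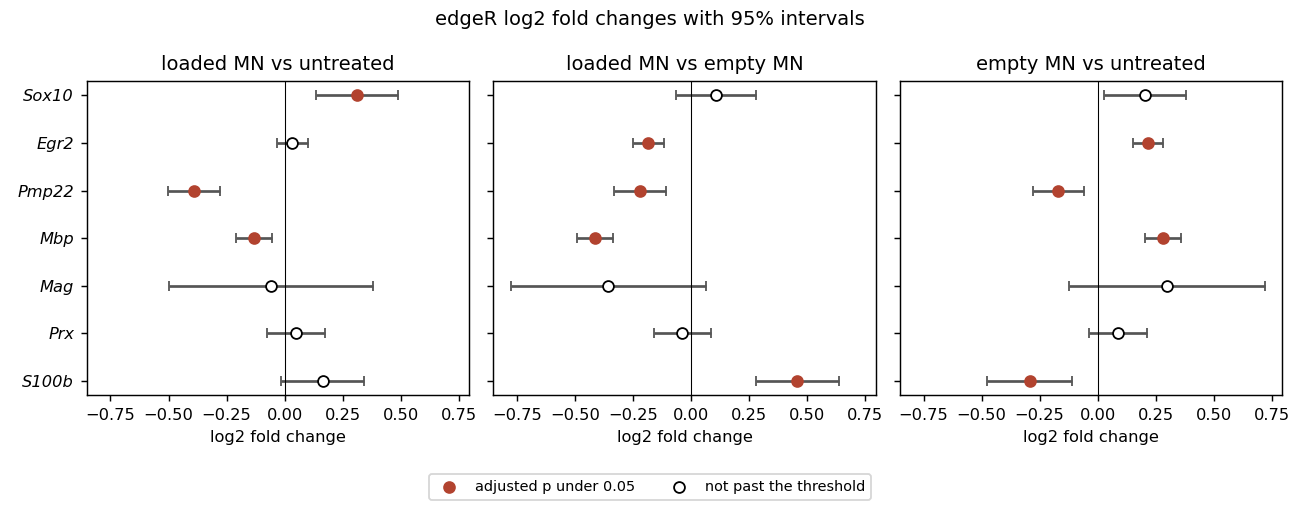
edgeR log2 fold changes (horizontal axis) of the 7 genes in the 3 comparisons, with 95% intervals as bars; filled points passed an adjusted p of 0.05. Mbp, Egr2 and S100b passed with opposite signs for loaded against empty MNs and empty MNs against untreated lesions, 2 comparisons that share the empty-MN libraries. Mag and Prx also changed sign there, without passing.

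Mag encodes the adhesion molecule of the Schwann cell membrane that faces the axon. On chromosome 7 it spans 30598601 to 30614298, on the minus strand. It had 49, 52 and 41 counts with loaded MNs, 72, 49 and 69 counts with empty MNs and 43, 49 and 45 counts in untreated lesions, or means of 0.518 ± 0.0715, 0.665 ± 0.145 and 0.539 ± 0.0316 CPM (SD, n = 3 each). Empty-MN libraries 1 and 3 were above all others, and library 2 lay among them. No comparison passed. The log2 fold change was -0.36 for loaded against empty MNs (95% interval -0.78 to 0.06, edgeR adjusted p = 0.172), 0.30 for empty MNs against untreated lesions (-0.12 to 0.72) and -0.06 for loaded MNs against untreated lesions (-0.50 to 0.38). Both no change and a change of the size seen for Mbp lie inside these intervals. Leaving out empty-MN library 2 gave a call for loaded against empty MNs (-0.52, adjusted p = 0.0475).

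Prx encodes periaxin, which links the outer Schwann cell membrane to the basal lamina through DRP2 and dystroglycan. On the plus strand of the same chromosome it spans 27196813 to 27219639, of which 23.7% is shared with Gm15541 (28 to 72 counts per library) on the opposite strand. It stood at 9.13, 9.72 and 9.26 CPM with loaded MNs, 8.998, 9.55 and 10.3 CPM with empty MNs and 8.84, 9.08 and 9.27 CPM in untreated lesions, and the groups overlapped in every pair. Prx passed in no comparison, with log2 fold changes of 0.05 (95% interval -0.08 to 0.17) for loaded MNs and 0.09 (-0.04 to 0.21) for empty MNs against untreated lesions, and -0.04 (-0.16 to 0.08) for loaded against empty MNs. With library size alone it was called against untreated lesions with loaded MNs (0.18) and with empty MNs (0.19), the second also with upper-quartile factors (0.16).

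S100b encodes a calcium-binding protein used as a Schwann cell marker, which melanocytes and adipocytes also make. It reaches from 76089687 to 76096993 on the plus strand of chromosome 10, and 23.7% of its span is shared with Dip2a on the opposite strand. Of genes lying only inside an opposite-strand gene, 13.9% were listed at 0, against 11.2% of genes inside no other gene and all genes inside a same-strand gene, so the counts separated the strands. It had 3.81, 4.28 and 3.93 CPM with loaded MNs, 2.81, 3.06 and 2.88 CPM with empty MNs and 3.80, 3.50 and 3.43 CPM in untreated lesions. The empty-MN libraries were below all others; loaded MNs stood just above untreated lesions. S100b rose with loaded against empty MNs (log2 fold change 0.46, SE 0.087, edgeR adjusted p = 8.26e-05), in all 18 alternatives, and fell with empty MNs against untreated lesions (-0.29, SE 0.089, adjusted p = 0.00735), a call lost only with library size alone (-0.19, adjusted p = 0.0778). For loaded MNs against untreated lesions the log2 fold change was 0.16 (95% interval -0.01 to 0.34), and it passed only with library size alone (0.30). Dip2a moved the other way, at -0.32 for loaded against empty MNs and 0.41 for empty MNs against untreated lesions, at 37.2, 46.6 and 35.0 CPM with loaded MNs, with empty MNs and in untreated lesions. Of 8 adipocyte markers 7 were higher and 1 lower with loaded than with empty MNs, and 1 was higher and 7 lower with empty MNs than in untreated lesions (medians 1.36 and -0.91). The exception in both was Car3, the most abundant. The sum of all 8 was 1695 to 1782 CPM with loaded MNs, 1694 to 1969 CPM with empty MNs and 1681 to 1729 CPM in untreated lesions. Without Car3, a choice made after its values were seen, the sum was 732 to 758 CPM with loaded MNs, 405 to 448 CPM with empty MNs and 679 to 739 CPM in untreated lesions. Fabp4 made up most of that reduced sum, with means of 622, 363 and 609 CPM in the same order. Car3 itself had means of 996, 1406 and 1004 CPM, highest with empty MNs. The part of adipocytes and of the melanocytes above in the S100b values was not tested.

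**Figure D3:**
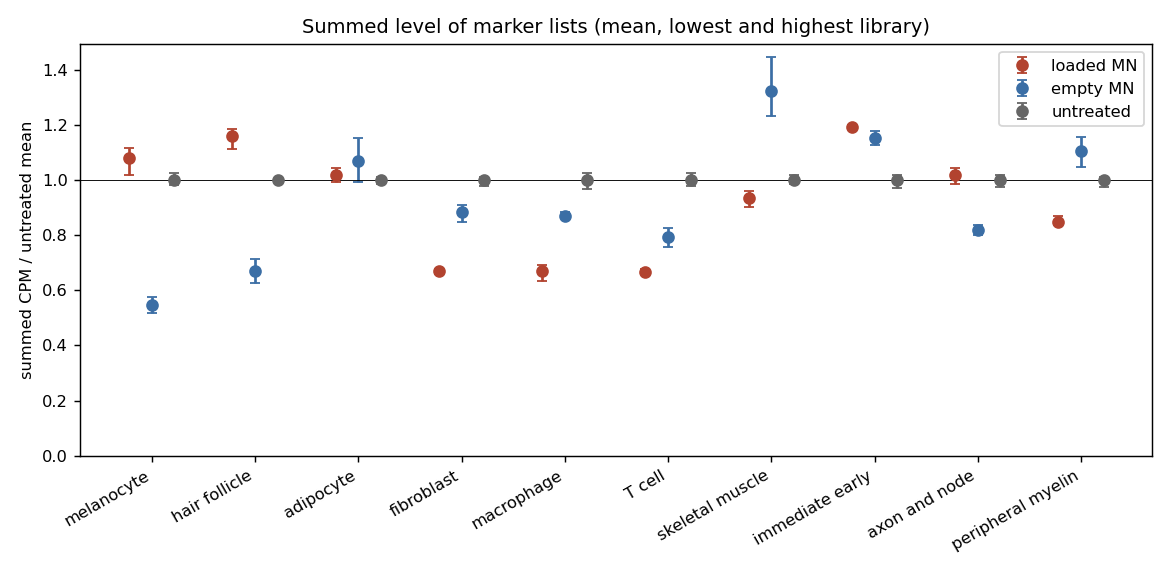
Summed CPM of each marker list divided by its mean in untreated lesions (vertical axis, from 0), with points at the group mean and bars from the lowest to the highest library. Melanocyte and hair follicle sums are lowest with empty MNs, and fibroblast, macrophage and T cell sums are lowest with loaded MNs.

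Further genes of the myelin sheath, beyond the members, that passed changed in the direction of Mbp between the devices and with empty MNs. Of the members, Pmp22 fell with empty MNs against untreated lesions (log2 fold change -0.17), where Mbp rose, and Prx passed in neither comparison. Of 12 tested genes of a 13-gene peripheral myelin list, 7 fell (58.3%, beside 18.5% of all tested genes) and 5 did not pass with loaded against empty MNs (median log2 fold change -0.28, all tested genes 0.02). With empty MNs against untreated lesions 5 rose (41.7%, beside 20.2%) and 7 did not pass (median 0.19, all tested genes -0.02), and with loaded MNs against untreated lesions 4 fell (33.3%, beside 23.3%) and 8 did not pass (median -0.12). The last median turned to 0.02 with library size alone, where 1 rose and 3 fell. Over the 18 alternatives 6 to 8 genes fell with loaded against empty MNs. With empty MNs against untreated lesions 3 rose without empty-MN library 2 or without untreated library 2 or 3, and up to 5 in the others. Of the marker lists, skeletal muscle had both of Mbp's directions (7 of 8 lower between the devices, 7 of 8 higher with empty MNs than in untreated lesions), and 7 of 8 fibroblast and 6 of 7 macrophage markers were lower with loaded than with empty MNs. The part of these cells in the values of the myelin genes was not tested.

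Cldn19, a claudin gene of Schwann cell junctions, had 70, 62 and 110 counts with loaded MNs, 145, 138 and 172 counts with empty MNs and 93, 90 and 87 counts in untreated lesions. The empty-MN libraries were above all 6 others, and loaded MNs overlapped with untreated lesions. Cldn19 fell with loaded against empty MNs (log2 fold change -0.85, edgeR adjusted p = 9.68e-05) and rose with empty MNs against untreated lesions (0.58, SE 0.162, adjusted p = 0.00388); 22.2% of its span is shared with Gm12927 on the opposite strand. Drp2, the gene of the partner of periaxin, changed by -0.27 and 0.44 in the same comparisons, while Prx itself did not pass. Fa2h, the gene of a hydroxylase for myelin lipids that skin cells also use, changed by -0.22 and 0.11. Cnp, which encodes a myelin-associated phosphodiesterase and shares 53.0% of its span with Dnajc7 on the opposite strand, fell with loaded MNs both against empty MNs (-0.35) and against untreated lesions (-0.34).

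Of the 12 tested myelin genes, Gjb1 had the largest fold change. It is a gap junction gene, mutated in a human X-linked neuropathy. Gjb1 had 115, 120 and 151 counts with loaded MNs, 312, 373 and 329 counts with empty MNs and 278, 328 and 340 counts in untreated lesions. The loaded-MN libraries were below all 6 others, and empty MNs overlapped with untreated lesions. Gjb1 fell 2.51-fold with loaded against empty MNs (log2 fold change -1.33, SE 0.11, edgeR adjusted p = 4.42e-11) and 2.65-fold against untreated lesions (-1.40, SE 0.11), with -0.07 (95% interval -0.27 to 0.12) for empty MNs against untreated lesions. It shares its span with no other gene of the table. Epithelial cells express Gjb1 too, and their part in its values was not tested.

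Pmp2, a fatty acid binding protein gene of myelin, and Sox2, a factor of immature Schwann cells, were listed at 0 in all 9 libraries. Both share bases with another gene on the same strand, Sox2 all of its span with Sox2ot and Pmp2 99.975% of it with Gm37389. All 6185 genes of the table that lie wholly inside a same-strand gene were listed at 0, against 829 of 5960 that lie only inside an opposite-strand gene, so these zeros give no level for either gene. None of the 7 members shares bases with a same-strand gene.

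**Figure D4:**
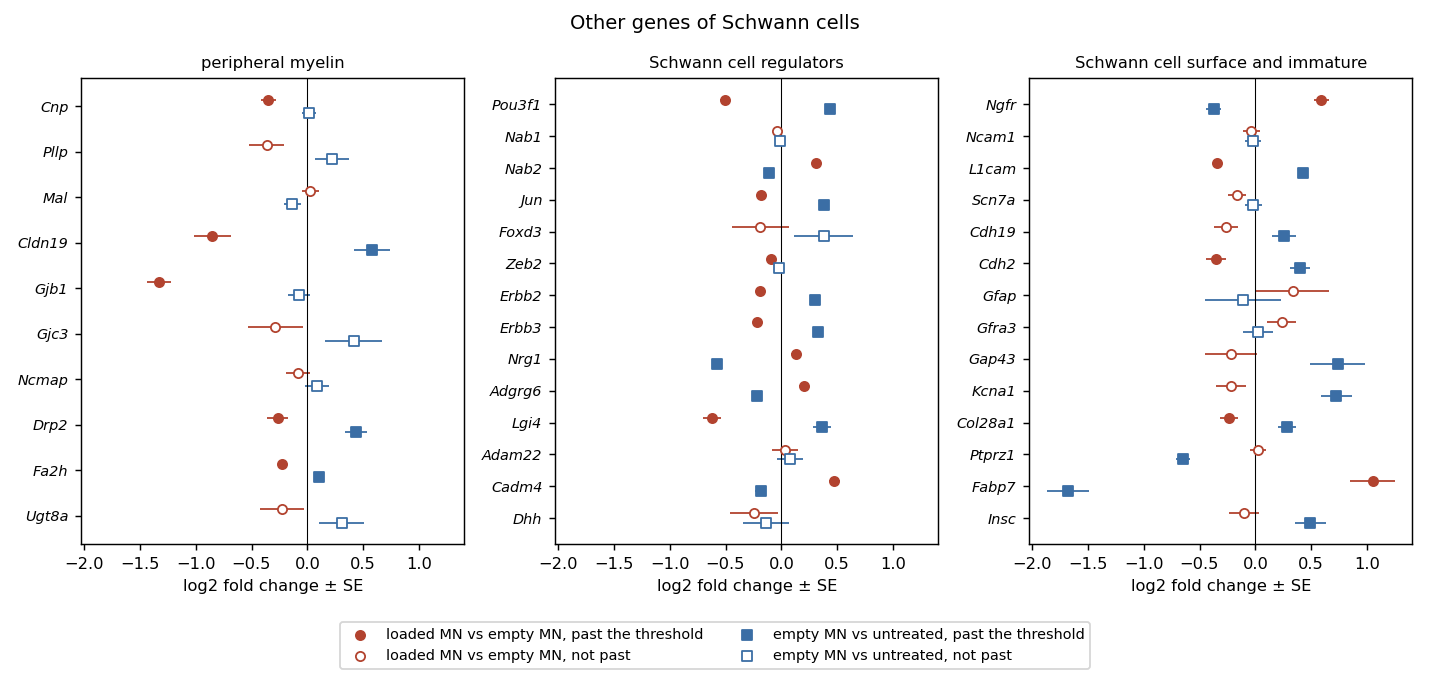
edgeR log2 fold changes with SE (horizontal axis) of genes of 3 Schwann cell lists, for loaded against empty MNs (circles) and empty MNs against untreated lesions (squares); filled marks passed an adjusted p of 0.05. In the myelin list the circles past the threshold all lie below 0 and the squares past it all above 0, whereas the other lists are mixed.

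The regulators of the lineage were split. Of 14 tested Schwann cell regulators, 4 rose and 6 fell with loaded against empty MNs (71.4% called, beside 41.4% of all tested genes; median log2 fold change -0.14). With empty MNs against untreated lesions 5 rose and 4 fell (64.3%, beside 48.3%; median 0.03), and with loaded MNs against untreated lesions 5 rose and 3 fell (57.1%, beside 42.3%; median 0.04, and -0.05 to 0.18 over the 18 alternatives). Pou3f1, the gene of the factor that acts with SOX10 before EGR2, changed by -0.51 between the devices and by 0.44 with empty MNs against untreated lesions. Lgi4, a secreted signal of Schwann cells needed for myelination in mice, changed by -0.62 and 0.36. Means of Pou3f1 were 124, 176 and 130 CPM with loaded MNs, with empty MNs and in untreated lesions. Those of Sox10 were 5.22, 4.84 and 4.21 CPM in the same order. The part of cells other than Schwann cells in the Pou3f1 values was not tested. Nab2, the gene of a co-regulator of EGR proteins, rose by 0.31 with loaded against empty MNs, whereas Egr2 fell. Nrg1, the axonal growth signal for Schwann cells that keratinocytes and fibroblasts can also make, fell with loaded MNs (-0.45) and with empty MNs (-0.58) against untreated lesions. Its receptor gene Erbb3 stood at 187 ± 2.90 CPM with loaded MNs, 216 ± 8.16 CPM with empty MNs and 172 ± 4.89 CPM in untreated lesions (SD, n = 3 each), or 8.43, 9.78 and 7.77 CPM per kb; keratinocytes express Erbb3 as well. Its log2 fold change was -0.21 for loaded against empty MNs and 0.33 for empty MNs against untreated lesions. Jun, which opposes EGR2 in Schwann cells and responds to stress in many others, rose by 0.38 with empty MNs against untreated lesions. Lgi4 shares 23.8% and Nab2 43.8% of its span with genes of the opposite strand.

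Of 14 surface and immature Schwann cell genes, 2 were higher and 3 lower with loaded against empty MNs, or 35.7% called, beside 41.4% of all tested genes (median log2 fold change -0.13, and -0.20 to -0.05 over the 18 alternatives). The number lower there was 5 with DESeq2 size factors or upper-quartile factors and 2 without loaded-MN library 2 or empty-MN library 3. With empty MNs against untreated lesions 7 were higher and 3 lower (71.4%, beside 48.3%; median 0.14, and 0.10 to 0.28 over the alternatives), and 4 were higher without untreated library 2. With loaded MNs against untreated lesions 3 were higher and 2 lower (35.7%, beside 42.3%, with a median of 0.06). With library size alone 6 were higher and 2 lower there, where 68.1% of all calls were higher. Ngfr, the low-affinity neurotrophin receptor of non-myelinating Schwann cells and of other skin cells, stood at 7.97, 8.003 and 7.63 CPM with loaded MNs, 5.50, 5.12 and 5.08 CPM with empty MNs and 6.51, 6.65 and 7.17 CPM in untreated lesions. The groups did not overlap, and the log2 fold change was 0.59 (SE 0.067, edgeR adjusted p = 2.32e-08) for loaded against empty MNs and -0.37 for empty MNs against untreated lesions. L1cam, an adhesion molecule gene of axons and Schwann cells, changed by -0.35 and 0.42 in the same comparisons, with 0.08 (not past the threshold) for loaded MNs against untreated lesions, where Mbp fell. Fabp7, a fatty acid binding protein gene of immature glia, rose by 1.05 with loaded against empty MNs and fell by 1.68 with empty MNs against untreated lesions.

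Of 14 genes for axons and nodes, 1 rose and 2 fell with loaded against empty MNs (21.4% called, beside 41.4%; median -0.30). With empty MNs against untreated lesions 2 rose and 2 fell (28.6%, beside 48.3%; median -0.07), and with loaded MNs against untreated lesions 1 rose and 1 fell (14.3%, beside 42.3%; median -0.22). Their summed level was 72.4 to 76.5 CPM with loaded MNs, 58.6 to 61.4 CPM with empty MNs and 71.6 to 74.8 CPM in untreated lesions. Tubb3, a tubulin gene that neurons use, led this sum and changed by 0.64 between the devices. Without it, a choice made after its values were seen, the other 13 genes summed to 28.0 to 28.9 CPM with loaded MNs, 29.8 to 31.6 CPM with empty MNs and 28.9 to 30.7 CPM in untreated lesions. Cntnap1 and Cntn1, genes of the junction between axon and myelin, changed by 0.03 (not past the threshold) and -0.20 between the devices. Oligodendrocyte genes, which mark myelin of the central nervous system, summed over 6 genes to 0.460 to 0.522 CPM with loaded MNs, 0.518 to 0.583 CPM with empty MNs and 0.416 to 0.510 CPM in untreated lesions. Mobp, Olig1 and Mog led that sum, and Olig2 had 2, 1 and 2 counts with loaded MNs, 0 in each empty-MN library and 1, 0 and 1 in untreated lesions.

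For each member of at least 1 CPM, the 3 genes with the nearest pattern were sought among 13867 others, by the root mean square difference of log2 CPM over the 9 libraries after each gene's mean was taken off. Mbp was nearest to Ikzf2 (0.0239), Clmn (0.0268) and Add3 (0.0343), Egr2 to Srd5a3 (0.0144), Fam210b (0.0174) and Atp9a (0.0200), and Pmp22 to Cntn1 (0.0352), Ptprc (0.0456) and Klhl6 (0.0467). S100b was nearest to Shc4 (0.0386), Sccpdh (0.0387) and Gemin8 (0.0423), Sox10 to Cyp2d22 (0.0264), Srrm4 (0.0532) and Gpr135 (0.0573), and Prx to Stx2 (0.0266), Nadk2 (0.0291) and Celf2 (0.0320). No member was among the nearest genes of another member.

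The choice of scaling moved values by amounts close to the smallest of these changes. With library size alone the median log2 fold change over all tested genes shifted by 0.13 for loaded MNs against untreated lesions, by 0.10 for empty MNs against untreated lesions and by 0.03 between the devices. Relative to the median of all genes the members' values were nearly the same under the 4 scalings. With TMM and with library size alone Mbp stood at -0.12 and -0.12 for loaded MNs against untreated lesions, Pmp22 at -0.38 and -0.38, and Sox10 at 0.32 and 0.32. A change of scaling shifts all genes of a comparison by nearly the same amount, so this sameness was fixed in advance and tests no scaling.

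**Figure D5:**
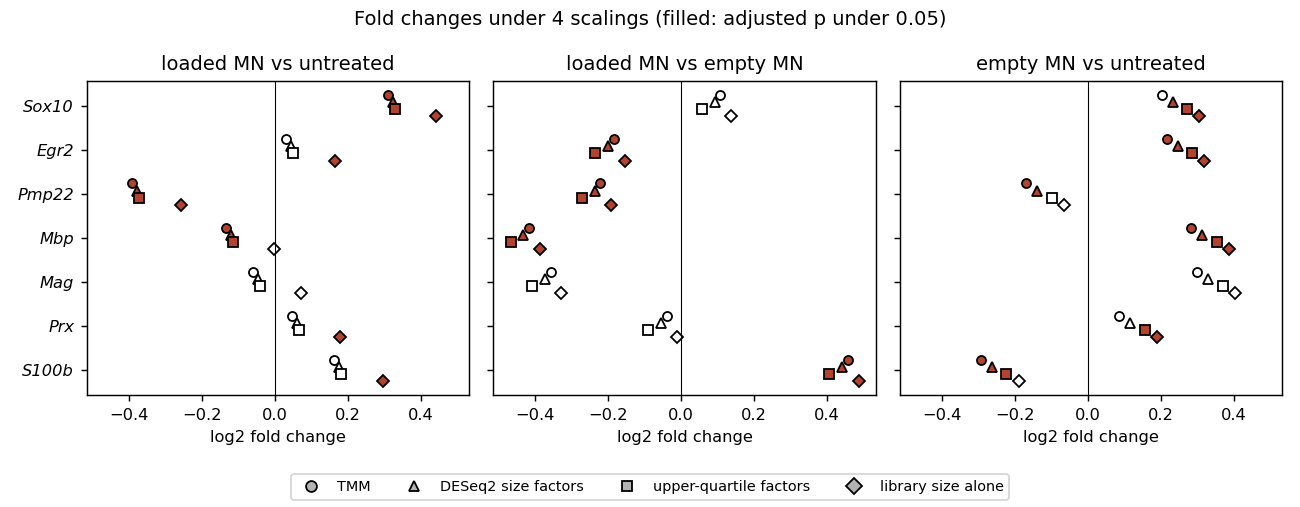
log2 fold changes (horizontal axis) of the 7 genes under TMM, DESeq2 size factors, upper-quartile factors and library size alone, in the 3 comparisons; filled marks passed an adjusted p of 0.05. Library size alone shifts all values against untreated lesions to the right, which takes Mbp from -0.13 to -0.00070 with loaded MNs.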

How the data were processed

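Per the labels' protocols, polyadenylated RNA of 9 skin samples was purified with miRNeasy (Qiagen), and libraries were made with the xGen Broad-Range kit of IDT. HISAT2 and featureCounts with build mm39 are named in the submitters' processing notes; their versions, the annotation and the strand setting are not given there. The deposited values are unnormalized read counts of genes, per the file headers. Gene length equalled the whole span for 99.9% of 54456 genes, so introns were counted, and genes inside a same-strand gene are at 0.

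Genes were kept with filterByExpr (minimum count 10, minimum total 15), scaled by TMM, and modelled in edgeR 4.0.16 under R 4.3.3 (robust quasi-likelihood, 1 coefficient per group, all 9 libraries). Calls are Benjamini-Hochberg adjusted p under 0.05 over 26081 genes. SE is the log2 fold change over the root of F. The steps were tested on simulated counts. Alternatives used DESeq2 1.42.0 and limma 3.58.1, other scalings and filters, a replicate block, 2 groups only, and 9 fits without 1 library each. The nearest genes used a pseudocount of 0.5 CPM. Members and lists were chosen with earlier results of these data known; up to 4 called genes per Schwann list and up to 3 most abundant genes per other list are named, with Erbb3 and Ngfr. Some genes of the myelin list enter its counts and sums but are not reported here by name. Olig2, Pmp2, Sox2 and the genes that overlap others were named after their values were seen.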

Additional observations from a re-analysis of the deposited data

How the results depend on the processing

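Of 378 member values under the alternatives, 353 kept their direction and their side of the threshold, 8 lost a call, 15 gained one and 2 changed sign. Both sign changes were of Mag for loaded MNs against untreated lesions, at -0.06 with no call as reported, 0.073 with library size alone and -0.13 to 0.051 when 1 library was left out (0.051 without loaded-MN library 3). The cause was not tested. With library size alone 5 members were called for loaded MNs against untreated lesions, 4 higher and 1 lower. Under that scaling 68.1% of all calls in this comparison were higher, and the median log2 fold change of all tested genes shifted by 0.13. The 4 higher calls are therefore not a result about the members alone. Leaving out each library gave 2 to 3 called members for loaded MNs against untreated lesions, 4 to 5 for loaded against empty MNs and 3 to 5 for empty MNs against untreated lesions. The counts of all genes called then ran from 9552 to 11542, from 9579 to 11330 and from 11630 to 12388 in the same order, beside 11024, 10805 and 12597 with all libraries. The share of higher calls moved to 68.1%, 61.3% and 57.9% with library size alone, and to 48.9%, 44.4% and 53.0% with upper-quartile factors, against 44.9%, 55.3% and 41.7% with TMM. A fit with a replicate block called 3, 4 and 4 members and 10960, 10753 and 12490 genes, and 3, 4 and 4 members were called without it. Deviations of libraries with the same number correlated at -0.07 to 0.03 over 9 pairs, so no shared deviation by number was seen. A pairing that left no such deviation would not show here. The counts of the 3 Schwann cell lists under the alternatives were added after the data were seen. Mag, at under 1 CPM, had few counts and wide intervals.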
